A study of Mus musculus with 6 samples.

Results

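Ly6a, Ly6c1, Ly6c2 and Ly6e, 4 members of the Ly6 family of surface proteins, were followed through mouse γδ T cells before and after culture. They were found by symbol in each deposited table and are 4 of the 26771 genes listed in any library, and all 4 had a value in all 6 libraries. The 4 were picked with the levels of these same libraries in view. Their differences between the groups and their spread within a group are therefore given as descriptions, with no test.

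All cells came from spleens of C57BL/6 mice with the TCRβ-/- genotype, which lack the β chain of the T cell receptor. The Induced group held γδT17 cells, the interleukin-17 producers among γδ T cells. They were grown from splenocytes with IL-1β and IL-23 as the base of the culture, harvested on day 8 and purified with the Pan T Cell Isolation kit II. The Initial group held cells also labelled γδT17 that were sorted from splenocytes and not cultured. The sources used here do not give the gate of that sort. Each group had 3 libraries of messenger RNA, from mice A, B and C, and both groups carried the same TCRβ deletion. The values were FPKM, fragment counts scaled by transcript length and library size, so levels can be set side by side between genes.

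Ly6 proteins are small, share a fold of 3 loops pinned by disulphide bonds and are mostly held in the outer membrane by a glycosylphosphatidylinositol (GPI) lipid anchor. In mice, Ly6a encodes Sca-1, an antigen of stem cells and of activated lymphocytes. The products of Ly6c1 and Ly6c2 make up the Ly6C antigen of monocytes, plasma cells, endothelium and memory T cells, which among γδ T cells is known from those that make interferon-γ. Interferons are known to raise several Ly6 genes.

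The genes lie in 1 cluster on chromosome 15 (build GRCm38). Ly6e (ENSMUSG00000022587) lies at chr15:74955051-74959905 on the plus strand. Ly6a (ENSMUSG00000075602, chr15:74994877-74998031), Ly6c1 (ENSMUSG00000079018, chr15:75044018-75048830) and Ly6c2 (ENSMUSG00000022584, chr15:75108158-75111970) lie on the minus strand. From the start of Ly6e to the end of Ly6c2 they cover 157 kb.

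Ly6c1 and Ly6c2 are close copies whose levels moved apart in these libraries, so the first 120 bases of both coding sequences (GENCODE M21, GRCm38) are shown, with capitals at the 6 positions where they differ.
Ly6c1: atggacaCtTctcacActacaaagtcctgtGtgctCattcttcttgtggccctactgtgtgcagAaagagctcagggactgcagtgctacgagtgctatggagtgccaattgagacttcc
Ly6c2: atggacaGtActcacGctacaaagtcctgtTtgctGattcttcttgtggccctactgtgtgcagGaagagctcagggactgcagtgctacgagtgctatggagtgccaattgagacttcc
Over all 393 coding bases 384, or 97.7%, were identical and 9 differed. Ly6a was 81.8% identical to Ly6c1 and 81.6% to Ly6c2, and Ly6e was 49.5 to 52.2% identical to the other members. Of all stretches of 100 bases in the annotated coding transcripts, 10.1% in Ly6c1, 14.9% in Ly6c2, 1.45% in Ly6a and 0% in Ly6e occurred letter for letter in another gene. The sources used here do not say how fragments that match both genes were counted, so the division of reads between Ly6c1 and Ly6c2 is uncertain and their sum is given beside them.

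The 250 bases before the start sites of both genes (RefSeq, GRCm38.p6, minus strand, chr15:75048838-75049087 for Ly6c1 and chr15:75111972-75112221 for Ly6c2) differed more than their coding parts. Capitals mark the runs of at least 12 aligned bases that both share without a break, 35 bases in each.
Ly6c1: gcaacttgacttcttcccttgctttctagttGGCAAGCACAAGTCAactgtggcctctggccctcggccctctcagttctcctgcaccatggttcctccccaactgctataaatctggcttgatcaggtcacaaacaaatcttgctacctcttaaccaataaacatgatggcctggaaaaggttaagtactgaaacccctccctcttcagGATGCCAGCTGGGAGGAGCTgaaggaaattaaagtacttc
Ly6c2: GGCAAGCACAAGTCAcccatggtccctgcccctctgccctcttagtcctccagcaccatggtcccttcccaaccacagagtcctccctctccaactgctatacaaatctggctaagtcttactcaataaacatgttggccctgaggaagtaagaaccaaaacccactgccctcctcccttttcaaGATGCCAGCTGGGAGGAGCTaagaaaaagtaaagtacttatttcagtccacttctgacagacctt
Aligned end to end, 164 of 284 columns, or 57.7%, were identical, 52 held different bases and 68 were gaps. The first shared run opens the Ly6c2 window but lies further in for Ly6c1, so the Ly6c1 bases before it count as gaps. Neither window held TTCNNNGAA, the letters of the gamma-activated site, or the core of the interferon-stimulated response element (GAAA, any 2 bases, GAAA), on either strand. Among 32851 promoter windows of this length, 7.02% held the first and 2.98% the second. The reference held 2 windows for each of Ly6c1 and Ly6c2, and only the one farthest upstream was used. It held none for Ly6a and Ly6e, which were not scanned.

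The libraries were alike in size. Depth, estimated from the steps between low values, was about 21100000 to 24150000 fragments in Induced and 18950000 to 21650000 in Initial libraries, with 16550 to 17033 genes listed in Induced and 20419 to 21844 in Initial libraries. Trdc, the constant region of the δ chain, stood at 299 to 357 FPKM in Induced and 320 to 335 FPKM in Initial libraries. The 5 γδ T cell markers, the CD3 chains and Trdc, summed to 1378 to 1502 FPKM in Induced and 1560 to 1696 FPKM in Initial libraries. Cd3d (110 to 144 FPKM in Induced, 156 to 197 FPKM in Initial libraries) was lower without overlap. So was Cd3e (217 to 226 FPKM in Induced, 304 to 326 FPKM in Initial libraries). The other CD3 chain genes and Trdc overlapped between the groups. The summed FPKM of 9 type 17 markers was 383, 414 and 253 in Induced A, B and C, against 66.6 to 84.1 in Initial libraries. The Initial libraries also carried markers of other cells: those of monocytes and macrophages without Ccr2 summed to 4.64 to 7.18 FPKM in Induced and 578 to 1113 FPKM in Initial libraries, and red cell markers to 1.17 to 1.63 FPKM in Induced and 1217 to 1742 FPKM in Initial libraries.

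Ly6a was the member with the largest difference between the groups, and it was higher in Induced cells. It stood at 1422, 1463 and 1100 FPKM in Induced A, B and C, and at 125, 111 and 144 FPKM in Initial A, B and C. All 3 Induced libraries lay above all 3 Initial ones. The means were 1328 ± 199 FPKM in Induced and 127 ± 16.4 FPKM in Initial cells (SD, n = 3 each), a ratio of 10.5. On the scale of log2(FPKM + 1), used for all differences here, Induced minus Initial was 3.38 (SE 0.13), with 3.49, 3.71 and 2.93 in mice A, B and C. Ranked by FPKM among all listed genes, Ly6a took places 13, 12 and 21 in Induced libraries and places 634, 695 and 551 in Initial libraries. The smallest difference was that of mouse C, where the Initial level was the highest and the Induced level the lowest of its group. In bulk samples, fewer cells of a type and less RNA per cell cannot be told apart.

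Ly6e, which encodes a widely expressed GPI-anchored protein known for its part in the entry of viruses, was high throughout. Its levels were 1356, 1439 and 1219 FPKM in Induced A, B and C, and 1314, 1227 and 1253 FPKM in Initial A, B and C. The groups overlapped, since Induced C lay below every Initial library but none of the others did. The means were 1338 ± 111 FPKM in Induced and 1264 ± 44.5 FPKM in Initial cells (SD, n = 3 each), and the log2 difference was 0.08 (SE 0.08). Scaling the libraries on the CD3 chains and Trdc, which raised the median of all genes from 0.03 to 0.24, gave Ly6e 0.31, and quantile normalization gave it 0.24.

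Ly6c2, one of the Ly6C genes, did not differ between the groups beyond its spread, and that spread lay in the Induced libraries. It stood at 308, 119 and 1082 FPKM in Induced A, B and C, and at 549, 394 and 611 FPKM in Initial A, B and C. Induced A and B lay below all Initial libraries and Induced C above all of them. The means were 503 ± 510 FPKM in Induced and 518 ± 112 FPKM in Initial cells (SD, n = 3 each), with a log2 difference of -0.58 (SE 0.76). By mouse the difference was -0.83 in A, -1.72 in B and 0.82 in C. Without Induced C it was -1.41, and without Induced B it turned to 0.18. Scaling on the CD3 chains and Trdc gave -0.35.

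Ly6c1, the other Ly6C gene, was the lowest of the 4 in all libraries and lower after culture. It stood at 2.09, 1.02 and 8.75 FPKM in Induced A, B and C, and at 23.3, 18.6 and 19.8 FPKM in Initial A, B and C. All Induced libraries lay below all Initial ones, with Induced C nearest to them. The means were 3.96 ± 4.19 FPKM in Induced and 20.6 ± 2.40 FPKM in Initial cells (SD, n = 3 each), so that the Initial mean was 5.20 times the Induced mean. The log2 difference was -2.45 (SE 0.56), with -2.97, -3.28 and -1.09 in mice A, B and C, and -3.10 without Induced C. With a pseudocount of 5 it was -1.61. At the estimated depths the Ly6c1 values stand for roughly 37.3, 18.5 and 178 fragments in Induced A, B and C and 425, 298 and 354 in Initial A, B and C.

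**Figure D1:**
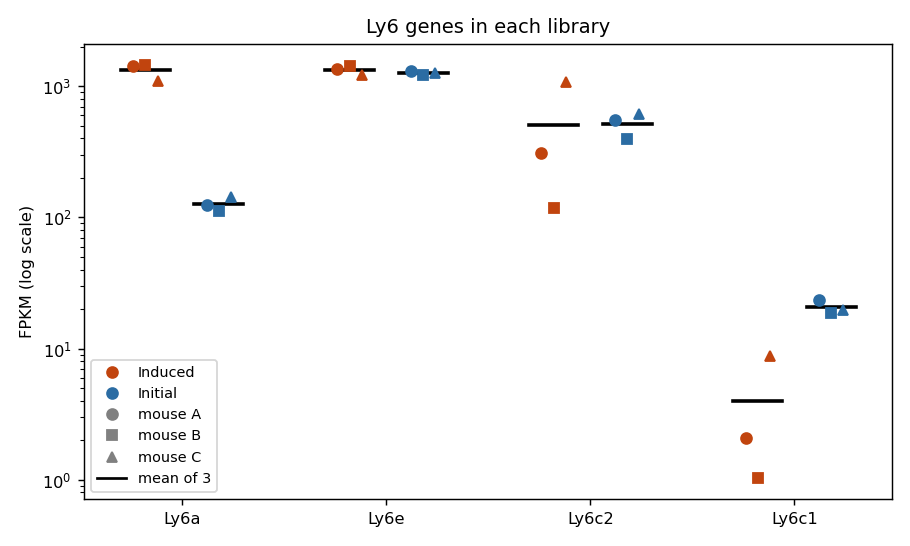
FPKM of the 4 genes on a log scale in each library, Induced in red left of Initial in blue, with a symbol per mouse and a bar at the mean of 3. Ly6a lies near 1328 FPKM in Induced and 127 FPKM in Initial cells, Ly6e overlaps, and the Induced points of Ly6c2 run from 119 to 1082 FPKM.

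Taken as 1 quantity, the 2 Ly6C genes summed to 310, 120 and 1091 FPKM in Induced A, B and C, against 572, 412 and 631 FPKM in Initial A, B and C. This sum followed Ly6c2, with a log2 difference of -0.62, -1.45 without Induced C and 0.14 without Induced B. Ly6c1 made up 0.674, 0.856 and 0.802% of the sum in Induced A, B and C and 4.06, 4.52 and 3.14% in Initial A, B and C. These shares did not overlap, so within the pair the smaller part of Ly6c1 was seen in all 3 Induced libraries, also in C, where Ly6c2 was highest.

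Of the 4 genes, Ly6a and Ly6c1 had groups that did not overlap, which is 2 of 4. Over all genes tested, 75.4% had groups that did not overlap, and no more is read from the count. The order of the levels also differed between the groups. In Induced cells Ly6e and Ly6a did not differ beyond their spread, Ly6c2 lay below both in each library, by 1082 against 1100 FPKM of Ly6a in C, and Ly6c1 was last. In Initial cells the order was Ly6e, Ly6c2, Ly6a and Ly6c1, with no overlap between neighbours. The 4 genes together took 0.677 to 0.751% of all FPKM in Induced and 0.405 to 0.455% in Initial libraries.

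The spread among the Induced libraries set Ly6c1 and Ly6c2 apart from Ly6a and Ly6e. The coefficient of variation of FPKM was 106% for Ly6c1 and 101% for Ly6c2 in Induced cells, against 11.7% and 21.6% in Initial cells. For Ly6a it was 14.98% in Induced and 13.0% in Initial cells, and for Ly6e 8.32% in Induced and 3.52% in Initial cells. The highest Induced library exceeded the lowest 9.12-fold in Ly6c2, 8.54-fold in Ly6c1, 1.33-fold in Ly6a and 1.18-fold in Ly6e.

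Set among the 4247 genes with a mean of at least 20 FPKM in Induced cells, Ly6c2 was at the end of the range. Its SD of log2(FPKM + 1) over the 3 Induced libraries was 1.59, the median gene had 0.0775, and 0 of the 4247 genes had a larger one. Ly6c1, whose Induced mean lies under that minimum, had an SD of 1.17, which 7 of these genes exceeded. Ly6a had 0.227, exceeded by 8.95% of the genes, and Ly6e 0.121, exceeded by 28.4%. In the Initial libraries the SD of Ly6c2 was 0.33, exceeded by 3.19% of 4169 genes, so its place there was less extreme. With a pseudocount of 5 the Induced SD of Ly6c2 was 1.57 and that of Ly6c1 0.630.

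**Figure D2:**
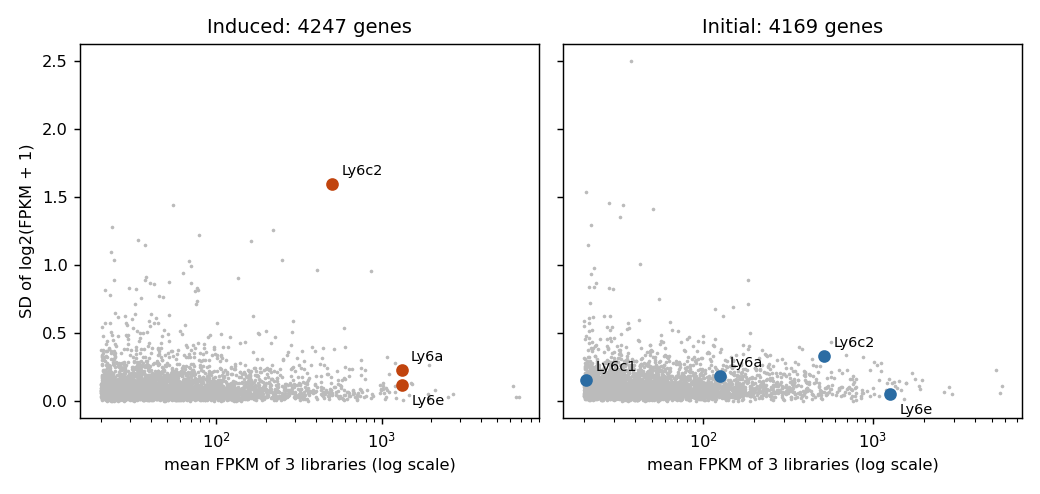
SD of log2(FPKM + 1) over 3 libraries against mean FPKM on a log scale, for genes with a mean of at least 20 FPKM in Induced (left, 4247 genes) and Initial cells (right, 4169 genes), with the Ly6 genes marked. Ly6c2 is the highest point on the left, at 1.59, while Ly6c1 is under the minimum there and appears on the right alone.

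Summed markers of NK cells and of CD4 and CD8 T cells stood in the order of the Ly6C genes across the Induced libraries. Summed type 17 markers stood in the opposite order. Single markers departed from the sums: Cd4 was lowest in Induced C (0.0858 FPKM) and Ncr1 highest in Induced A (0.220 FPKM). The summed FPKM of 6 NK cell markers was 33.5, 20.3 and 93.6 in Induced A, B and C, against 127 to 148 in Initial libraries, and that of Cd4, Cd8a and Cd8b1 was 25.1, 13.0 and 57.0 in Induced A, B and C, against 49.9 to 80.8 in Initial libraries. The summed type 17 markers, given above, were highest in Induced B and lowest in Induced C among Induced libraries. Among them, Il17f was lowest and Il1r1 highest in Induced A. Ccr6 stood in the order of the Ly6C genes, at 0.827, 0.611 and 0.937 FPKM in Induced A, B and C. Of the 6 NK cell markers, Klra8 and Klra4 were at 0 in all Induced libraries and Ncr1 stood at 0.0302 to 0.220 FPKM there, against 4.45 to 5.39 FPKM in Initial libraries. The other three were present in all Induced libraries and lowest in B and highest in C. Klrb1c, the NK1.1 antigen gene, had 13.4, 11.9 and 30.6 FPKM in Induced A, B and C, against 57.3 to 68.1 FPKM in Initial libraries. Klre1, an NK receptor gene, had 3.69, 1.28 and 16.1 FPKM in Induced A, B and C, against 22.6 to 30.8 FPKM in Initial libraries. Eomes, a transcription factor gene of NK and cytotoxic T cells, had 16.3, 7.16 and 46.7 FPKM in Induced A, B and C, against 37.9 to 53.5 FPKM in Initial libraries. The part of these cells in the levels of Ly6c1 and Ly6c2 was not tested.

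Summed markers of most other cells known to carry Ly6C were lower in the Induced libraries. Among 13 monocyte and macrophage markers 12 were lower and 1, Ccr2, higher in Induced cells, and Csf1r, their growth factor receptor gene, stood at 0.0363 to 0.107 FPKM in Induced and 37.3 to 72.2 FPKM in Initial libraries. Plasma cell markers summed to 3.97 to 7.23 FPKM in Induced and 220 to 262 FPKM in Initial libraries, plasmacytoid dendritic cell markers to 6.43 to 8.90 FPKM in Induced and 60.7 to 73.2 FPKM in Initial libraries, and B cell markers to 25.2 to 48.8 FPKM in Induced and 193 to 234 FPKM in Initial libraries. Jchain held most of the plasma cell sum in Initial libraries, at 205 to 247 FPKM. Of 4 tested plasma cell markers 2 were lower in Induced cells, while Sdc1 and Derl3 overlapped between the groups. The endothelial markers summed to 56.3 to 79.9 FPKM in Induced and 62.9 to 77.2 FPKM in Initial libraries. Pecam1, also made by T cells, held most of this sum, and Cdh5 was at most 0.0126 FPKM in Induced and 0.0242 FPKM in Initial libraries. Of 3 tested endothelial markers 2 were higher and 0 lower in Induced cells. The 2 higher ones were Egfl7 (log2 difference 0.94, limma adjusted p = 2.5e-04) and Eng (0.90, limma adjusted p = 0.0017). Neutrophil markers summed to 0.926 to 4.86 FPKM in Induced and 1.41 to 17.5 FPKM in Initial libraries. The part of monocytes, plasma cells and the other cells in the Initial levels of the 4 genes was not tested.

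Neighbouring genes of the cluster did not share a direction. From Ly6d to Ly6f, 17 genes of the files lie on this stretch of chromosome 15, chosen after the values were seen, and 7 of them passed the filter of at least 1 FPKM in at least 3 libraries. Ly6d, a gene known from B cells and their progenitors, fell to 3.98, 2.56 and 1.39 FPKM in Induced A, B and C, against 45.7, 50.4 and 53.1 FPKM in Initial A, B and C (log2 difference -3.86, SE 0.24, limma adjusted p = 8.1e-06). Ly6i, 11.4 kb from Ly6a, fell to 0.195, 0.0742 and 0.224 FPKM in Induced cells, against 1.53, 1.59 and 1.27 FPKM in Initial cells (-1.08, SE 0.11, limma adjusted p = 6.5e-05). So Ly6i had at most 0.224 FPKM in the libraries where Ly6a was high. B cell markers fell as Ly6d did, and their part in it was not tested.

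Ly6a2, which the files name I830127L07Rik, lies next to Ly6c2 on the far side from Ly6c1 and showed the same order of Induced libraries. It is annotated as a transcribed unprocessed pseudogene. Of stretches of 50 bases, 20 of Ly6a, 18 of Ly6i and 3 of Ly6c2 occur in it letter for letter. Its level is uncertain where the counting did not separate them. Ly6a2 stood at 3.91, 1.55 and 16.6 FPKM in Induced A, B and C, against 0.505, 0 and 0.179 FPKM in Initial A, B and C. It rose, with a log2 difference of 2.32 (SE 0.68, limma adjusted p = 0.022). The call was lost with a pseudocount of 5 (adjusted p = 0.068), without Initial B (0.058) and without Initial C (0.072).

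**Figure D3:**
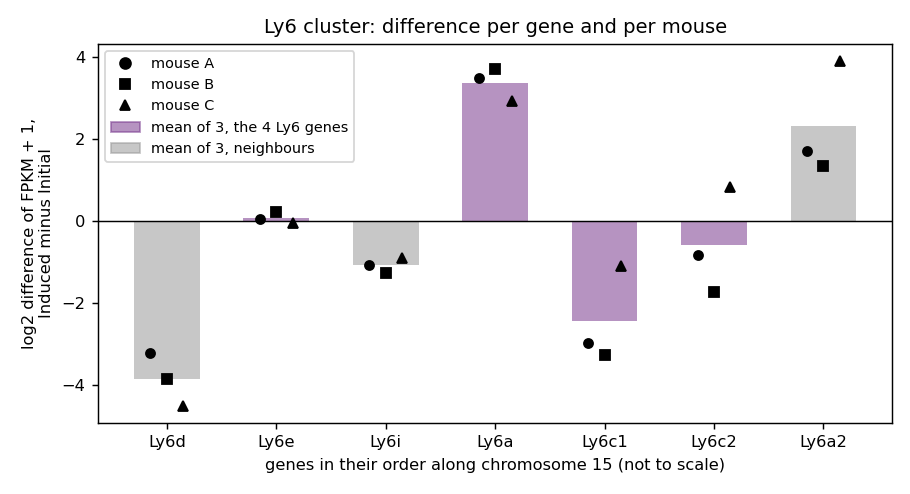
Difference of log2(FPKM + 1), Induced minus Initial, for the 7 tested genes from Ly6d to Ly6a2 in chromosome order, with bars at the mean of 3 mice and a symbol per mouse. Ly6a at 3.38 and Ly6a2 at 2.32 point up, Ly6d at -3.86, Ly6i at -1.08 and Ly6c1 at -2.45 point down, and the mice disagree in sign for Ly6c2 and Ly6e.

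Beyond the 4 genes, 39 other Ly6 and uPAR family genes were listed, 22 had a value in some library and 6 passed the filter, of which 2 rose and 4 fell. Among these 6, Ly6i and Plaur reached 1 FPKM in Initial libraries alone and Ly6a2 in Induced libraries alone, so their passing and their differing go together. Without Initial B or C only 4 were tested and 3 called. Of all 11265 genes tested, 70.4% were called, 37.3% higher and 33.1% lower in Induced cells, at an adjusted p under 0.05. The p-values set the difference between the groups against the spread between libraries within a group. Culture, sort and purification differ together between the groups, and the p-values cannot tell them apart.

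Outside the cluster, Ly6g5b rose and Plaur and Lypd6b fell. Ly6g5b, a family member encoded in the major histocompatibility region, rose to 102, 110 and 70.2 FPKM in Induced A, B and C, against 4.62, 5.42 and 5.38 FPKM in Initial A, B and C (log2 difference 3.93, SE 0.16, limma adjusted p = 7.2e-07). Plaur, the urokinase receptor gene, fell to 0.628, 0.920 and 0.470 FPKM in Induced cells, against 52.7, 50.6 and 34.0 FPKM in Initial cells (-4.79, SE 0.18, limma adjusted p = 3.6e-07). Lypd6b fell to 1.14, 0.601 and 2.04 FPKM in Induced cells, against 5.83, 5.81 and 5.83 FPKM in Initial cells (-1.64, SE 0.21, limma adjusted p = 2.5e-04). Plaur is also made by monocytes and macrophages, whose markers fell with it.

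The genes with profiles most like each Ly6 gene were taken by the smallest Euclidean distance between centred log2(FPKM + 1) profiles over the 6 libraries, among 4698 tested genes with at least 20 FPKM in the higher group. For Ly6a they were Osbpl3, Dlgap5 and Kif15 (distances 0.185, 0.241 and 0.246), an oxysterol-binding protein gene and a pair of genes of the mitotic spindle. Osbpl3 had 158, 159 and 122 FPKM in Induced A, B and C, against 12.5, 12.8 and 14.0 FPKM in Initial A, B and C. For Ly6e they were Sgta, Mospd3 and Yipf3 (0.0520, 0.0735 and 0.0769), which are genes with almost flat profiles.

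For Ly6c1 the nearest were Ccl5, Gramd3 and Fgf13 (distances 0.396, 0.453 and 0.518). Ccl5, a chemokine gene of memory and cytotoxic T cells, had 99.8, 65.3 and 320 FPKM in Induced A, B and C, against 756, 521 and 812 FPKM in Initial A, B and C. For Ly6c2 they were Samd3, Eomes and Ctla2a (0.817, 0.960 and 1.06). Eomes is the NK cell marker given above. All 6 of these genes shared with the Ly6C genes the order B, A, C from low to high in Induced cells, which their choice by likeness favours. Among the 4247 genes above, 29.8% had that order. The distance between Ly6c1 and Ly6c2 themselves was 2.43, larger than from either to its nearest genes, and the largest among the 4 was 7.41 between Ly6a and Ly6c1.

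**Figure D4:**
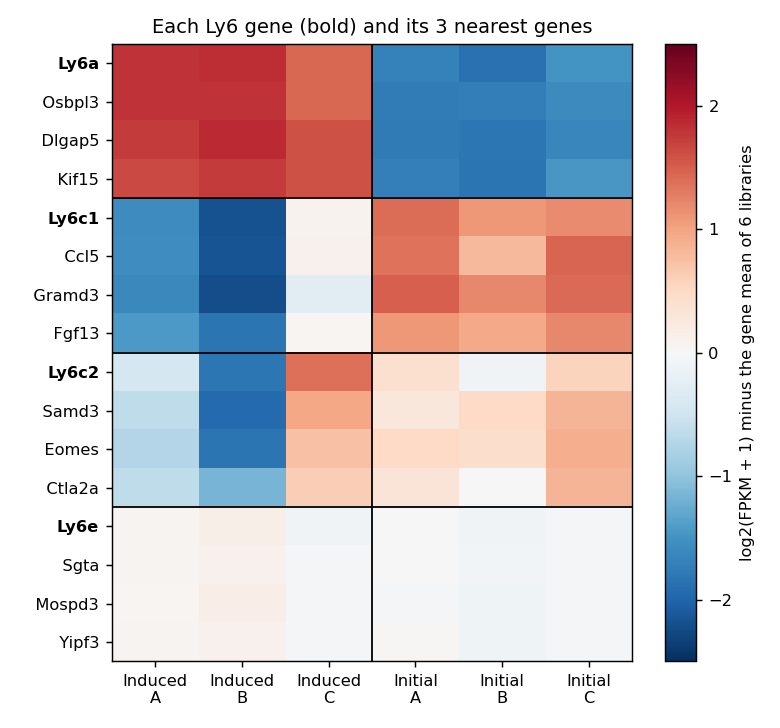
Heat map of log2(FPKM + 1) minus each gene's mean over 6 libraries, for each Ly6 gene (bold) and its 3 nearest genes, Induced libraries left of Initial ones. Ly6a and its neighbours are high in all Induced libraries, those of Ly6c1 and Ly6c2 are lowest in Induced B and highest among Induced libraries in C, and Ly6e is flat.

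The interferon pathway, known to act on Ly6 genes, was described with a list of 22 tested ligand, receptor and signalling genes. Of these, 4 rose, 11 fell and 7 did not pass, so that 68.2% were called, near the 70.4% over all genes, with a median log2 difference of -0.17 against 0.03 over all genes. Socs1, a feedback inhibitor gene of interferon signalling, rose to 212, 228 and 194 FPKM in Induced A, B and C, against 43.4, 51.7 and 63.0 FPKM in Initial A, B and C. On the log2 scale it rose by 1.997 (limma adjusted p = 5.9e-06). The receptor chain gene Ifngr2 fell to 15.5, 16.1 and 10.9 FPKM in Induced cells, against 43.3, 42.1 and 43.8 FPKM in Initial cells (-1.56, limma adjusted p = 2.5e-05), and Socs3, an inhibitor of cytokine signalling, fell by 3.82 (limma adjusted p = 7.3e-07). Ifng itself, the gene of interferon-γ, had 36.3, 44.1 and 48.4 FPKM in Induced A, B and C, against 28.4, 42.8 and 34.4 FPKM in Initial A, B and C (0.29, limma adjusted p = 0.141). With the mouse as a replicate block it passed, at an adjusted p of 0.0323. Scaling on the CD3 chains and Trdc gave 7 higher and 6 lower genes in this list.

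Of 52 interferon response genes, 29 rose, 14 fell and 9 did not pass, so that 82.7% were called against 70.4% over all genes, with a median of 0.50. Ifitm1, a membrane protein gene of antiviral defence, rose to 162, 73.4 and 426 FPKM in Induced A, B and C, against 1.10, 1.60 and 1.07 FPKM in Initial A, B and C (6.27, SE 0.60, limma adjusted p = 1.5e-04). Its Induced libraries stood in the order of the Ly6C genes, while all of them lay above the Initial ones. Iigp1, an interferon-induced GTPase gene, rose by 5.22 (SE 0.19, limma adjusted p = 6.0e-07). Oasl1 fell to 0.324, 0.141 and 0.543 FPKM in Induced cells, against 6.11, 7.80 and 7.78 FPKM in Initial cells (-2.63, limma adjusted p = 2.5e-06), and Ifit3 fell by 2.52 (limma adjusted p = 4.8e-07), both being antiviral genes of the response to type I interferon. In this list 6 genes reached 1 FPKM in Initial libraries alone.

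Grouped by symbol after the values were seen, all 6 guanylate-binding protein genes rose, with log2 differences of 1.503 to 4.21, as did all 7 immunity-related GTPase genes, with 1.97 to 5.22. Of 4 Ifit genes 3 fell and of 5 Oas and Oasl genes 4 fell. Over all genes tested 37.3% rose and 33.1% fell. Ifit3b, Oas2 and Oasl1, which are among those that fell, reached 1 FPKM in Initial libraries alone, so their passing the filter and their differing go together. These counts were equal under a common sum, trimmed mean and quantile normalization. On the CD3 chains and Trdc 1 Oas gene rose and 3 fell.

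The genes that build the GPI anchor, which holds the Ly6 proteins in the membrane, were called about as often as all genes. Of 29 tested genes of its synthesis, transfer and remodelling, 14 rose, 6 fell and 9 did not pass, so that 69.0% were called against 70.4% over all genes, with a median of 0.23, and scaling on the CD3 chains and Trdc gave 18 higher and 3 lower. Gpaa1, a subunit of the transamidase that joins proteins to the anchor, rose to 58.4, 61.0 and 57.0 FPKM in Induced A, B and C, against 20.8, 22.4 and 25.1 FPKM in Initial A, B and C (1.34, SE 0.08, limma adjusted p = 3.4e-06). Pigf, which acts at the last step of synthesis, rose by 1.18 (limma adjusted p = 4.5e-05). Pgap1 and Pgap3, which remodel the anchor's lipid after transfer, fell by 1.16 and 0.68 (limma adjusted p = 5.1e-05 and 4.0e-04). Among the list and marker genes named here, exons of Ifng, Klrb1c, Il10rb and Egfl7 overlap another annotated gene on the same strand. Those of Oasl1, Pigf, Eomes, Csf1r, Trdc, Cd3e, Tyk2, Eng and Egfl7 overlap genes on the other strand. The levels of all these genes are uncertain where the counting did not separate them.

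Of 12 tested genes of other GPI-anchored proteins of lymphocytes, 3 rose, 6 fell and 3 did not pass, so that 75% were called against 70.4% over all genes, with a median of -0.60, and scaling on the CD3 chains and Trdc gave 5 higher and 6 lower. Cd24a fell to 1.08, 0.978 and 0.764 FPKM in Induced A, B and C, against 44.2, 46.3 and 44.7 FPKM in Initial A, B and C (-4.57, limma adjusted p = 3.5e-08). It is also a B cell and red cell precursor gene, and their markers fell with it. Izumo1r, the folate receptor 4 gene, also fell by 4.57 (limma adjusted p = 4.4e-08). Cd48, a ligand of the receptor 2B4, rose to 276, 282 and 326 FPKM in Induced cells, against 154, 165 and 192 FPKM in Initial cells (0.79, limma adjusted p = 2.2e-04). Ulbp1 rose by 1.59 (limma adjusted p = 1.8e-05), though its mouse product, the NKG2D ligand MULT1, is known as a transmembrane protein.

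Genes of activated and memory T cells, among which Ly6a and Ly6C serve as markers, were split. Of 25 tested genes, 9 rose, 13 fell and 3 did not pass, so that 88% were called against 70.4% over all genes, with a median of -0.97. Il2ra, the interleukin-2 receptor α chain gene, rose to 72.5, 72.5 and 78.4 FPKM in Induced A, B and C, against 5.08, 5.65 and 6.19 FPKM in Initial A, B and C (3.51, limma adjusted p = 5.6e-08). Ccr2, a chemokine receptor gene, rose to 241, 219 and 217 FPKM in Induced cells, against 17.3, 19.7 and 19.9 FPKM in Initial cells (3.50, limma adjusted p = 4.4e-08). Ccr7, a lymph node homing receptor gene, fell to 25.9, 20.3 and 40.2 FPKM in Induced cells, against 836, 735 and 704 FPKM in Initial cells (-4.72, limma adjusted p = 3.1e-06), and Klf2, which controls recirculation, fell by 4.60 (limma adjusted p = 8.2e-05). Ccr7 and Klf2 were highest in Induced C among Induced libraries, as Ly6c1 and Ly6c2 were.

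**Figure D5:**
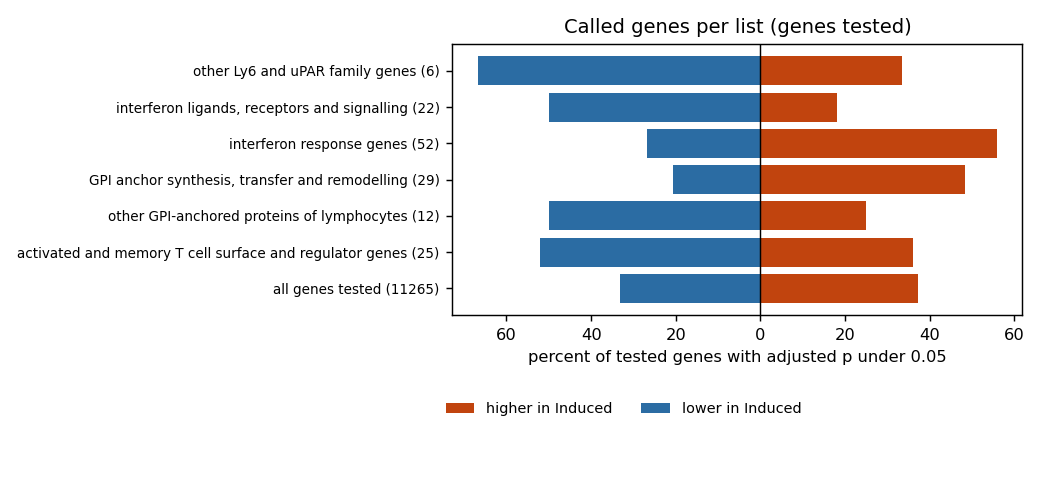
Percent of tested genes that were higher (red) or lower (blue) in Induced cells at a limma adjusted p under 0.05, per list and over all 11265 genes tested, with the number tested in brackets. Interferon response and anchor synthesis genes have more higher than lower genes, the other lists more lower than higher ones, and over all genes 37.3% were higher and 33.1% lower.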

How the data were processed

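FPKM per gene were made by the authors with Cuffdiff, per the labels' protocols, from VAHTS mRNA-seq v2 libraries. The submitters' processing notes name CASAVA, HISAT2 2.0.5, Cuffdiff 1.3.0 and 2.2.1, and the build mm9. Positions in the deposited tables match GRCm38 instead: 26669 gene identifiers were found in GENCODE M21, 99.9% of them on the chromosome given. The sources used here do not say whether the counting used strand. No listed FPKM was 0, and a gene with no row in a table was given 0.

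Log2(FPKM + 1) was fitted with limma 3.58.1 in R 4.3.3 (trend, robust, two-sided, Benjamini-Hochberg adjustment over all 11265 genes with at least 1 FPKM in at least 3 libraries), without a block. Differences on this scale understate those of low genes. Mouse letters in the sample titles pair the libraries. Correlations of deviations from the group means were 0.0393, 0.0307 and 0.131 for mice A, B and C, and -0.132 to 0.0988 between different mice. Depth was estimated from low values, of which 42.8 to 47.0% lay within 0.15 of a whole number of fragments, where chance gives 30%, so it is rough. Promoter and coding sequences were aligned with Biopython 1.88 in Python 3.11.15. The fit was tested on simulated data.

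The members and lists were chosen with earlier results of these data known. Named genes are the 4 members, the 3 nearest profiles of each, all tested Ly6 and uPAR genes, the 2 largest rises and falls of each list and the marker genes; Ifng was named after its value was seen. Listed genes that the text leaves out are not reported here. Nearest profiles and the genes ranked by their ratio in Induced C passed over immunoglobulin and receptor segments, predicted genes, Rik clones and mitochondrial genes. Alternatives were pseudocounts of 0.1 and 5, other scalings and filters, limma without trend, the mouse block and leaving out each library.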

Additional observations from a re-analysis of the deposited data

How the results depend on the processing

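Of 201 values recomputed under other settings, 192 stayed within their spread or within 1.5 times the count, and 9 did not. A pseudocount of 5 gave Ly6c1 a difference of -1.61 and an Induced SD of 0.630. Scaling on the CD3 chains and Trdc gave Ly6a 3.60 and Ly6e 0.31. Quantile normalization gave Ly6e 0.24 and an Induced SD of 0.0710. Without a filter, 10 of 22 other family genes were called. Leaving out each library in turn gave 3 to 5 called family genes, with 4 or 5 tested, so that fewer could be called. It gave differences of 3.29 to 3.51 for Ly6a, -3.10 to -1.97 for Ly6c1, -1.41 to 0.18 for Ly6c2, -1.45 to 0.14 for the sum of Ly6c1 and Ly6c2, and 0.02 to 0.14 for Ly6e. Scaling on the CD3 chains and Trdc called 5423 genes higher and 2635 lower, against 4199 higher and 3732 lower as deposited. With the mouse as a replicate block 7943 genes were called, against 7931, and the differences of the members were the same by construction. Among the genes given with an adjusted p in the text, the block changed the calls of Ifng (adjusted p = 0.0323) and Cd8b1 (0.0291). The cause of the other shifts was not tested. Depth limits Ly6c1 most, with about 18.5 fragments in Induced B.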

Other observations

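Induced C stood apart from Induced A and B in a limited set of genes, described here after the values were seen and with no test. Among 4247 genes with a mean of at least 20 FPKM in Induced cells, 30 were at least 2-fold above both other libraries in Induced C and 8 were at most 0.5-fold of both. Induced A had 0 such genes in either direction, and Induced B had 0 above and 7 below. Sizes were ranked with immunoglobulin and receptor segments, predicted genes, Rik clones, mitochondrial genes and similar symbols passed over. Among the rest Ly6c2 led, with Induced C at 3.51 times the higher of A and B. The other genes with the largest such ratios were Ccl5, Klrc1, Eomes, Gzma, Ifitm1, Klrd1, Klrk1, Gramd3, Nkg7 and Ctla2a, from 3.20 for Ccl5 to 2.44 for Ctla2a. They include the NK receptor genes Klrc1, Klrd1 and Klrk1, and genes of cytotoxic granules, Gzma and Nkg7. Gzma had 175, 113 and 463 FPKM in Induced A, B and C, against 16.7, 30.7 and 34.9 FPKM in Initial A, B and C, so it was high in all Induced libraries.

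Several calls changed without Induced C, in genes picked here after their values were seen. Without it, Eomes (log2 difference -1.89, limma adjusted p = 0.0068), Cd8a (-0.95, 0.0052), Cd8b1 (-1.90, 0.0098) and Cxcr3 (-0.66, 0.0093) were called lower and Il17a (0.93, 0.0301) higher in Induced cells. With it their adjusted p-values were 0.119, 0.29, 0.0663, 0.69 and 0.325. Other list and marker genes changed too. Without Induced C, Sdc1 (0.59, limma adjusted p = 0.0091) and Irf8 (0.31, 0.0156) were called higher. Mx1 (-0.47, 0.0227) and Il10rb (-0.34, 0.0138) were called lower, and the calls of Itgb1, Klrg1 and Tyk2 were lost. Cd8b1 was also called with Induced C kept, with the mouse as a replicate block (limma adjusted p = 0.0291) and with limma without trend and robust shrinkage (0.0492). The part of Induced C's cell makeup in these differences was not tested.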
